A study of Mus musculus with 6 samples.

Results

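NMDA receptor subunit transcripts were compared between the hippocampus of mice of the transgenic line L26 and that of wild type mice, on Affymetrix Mouse Genome 430 2.0 arrays. The members were all probe sets annotated to exactly 1 symbol among Grin1, Grin2a, Grin2b, Grin2c, Grin2d and Grin3a, a choice that uses no measured value. It gave 11 of the 45037 non-control probe sets, for 5 of the 6 genes, out of 18193 genes in all. Grin2b had 4 probe sets, Grin3a had 3, Grin2d had 2, and Grin2a and Grin2c had 1 each. No probe set carried the symbol Grin1 in the annotation used, so Grin1 was not analysed here.

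The 3 L26 samples came from adult male mice homozygous for daDREAM, a dominant active mutant of the calcium-binding transcriptional repressor DREAM. The 3 wild type samples came from littermates, and both groups shared the mixed C57B6xCBA background. L26 is 1 transgenic line, so effects of the transgene and of its insertion site cannot be told apart, and the promoter that drives daDREAM is not given in the sources used here. The design text calls the replicates of each group biologically independent, and no stimulus is named in the labels.

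NMDA receptors are glutamate-gated channels that admit calcium and need both glutamate and a co-agonist, glycine or D-serine, to open. Each channel joins GluN1 subunits, encoded by Grin1, with GluN2 subunits, encoded by Grin2a to Grin2d, or GluN3 subunits such as that of Grin3a. In the forebrain GluN2B dominates early in life and GluN2A gains share with maturation, and the pair sets how long the channel stays open and which signalling proteins bind the receptor. DREAM protein has itself been described as a binding partner of the NMDA receptor, besides its role in the nucleus.

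The arrays were alike in their overall values. Array medians were 7.27 to 7.32 on the log2 scale. Correlations over all probe sets were 0.9971 to 0.9979 within groups and 0.9944 to 0.9958 between them. The actin control had a 3' minus 5' log2 difference of 0.443 ± 0.058 in L26 and 0.403 ± 0.006 in wild type (SD, n = 3 each, exact permutation p = 0.3, where 0.1 is the smallest this design allows). Marker genes of the hippocampal subfields were measured, 11 for dentate granule cells, 9 for CA1 and 10 for CA3, and the lowest, Trpc6, lay at the 45.3th percentile of probe set levels. In bulk tissue, fewer cells of a type and less RNA per cell cannot be told apart.

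In L26 hippocampus 1 of the 11 subunit probe sets was higher than in wild type and none was lower. It was 1422223_at of Grin2b, at 1.49-fold the wild type level. The other 10 did not pass the threshold, an adjusted p of 0.05 from limma with Benjamini-Hochberg adjustment over all probe sets. Among all 45037 probe sets 3.92% passed, 1.98% higher and 1.94% lower in L26. At an unadjusted p of 0.05, 3 of the 11 passed, beside 18.1% of all probe sets. The median difference, L26 minus wild type, was 0.10 on the log2 scale over the 11 probe sets and 0.01 over all probe sets. A difference above 0 was seen for 10 of the 11, and for 55.1% of all probe sets.

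**Figure D1:**
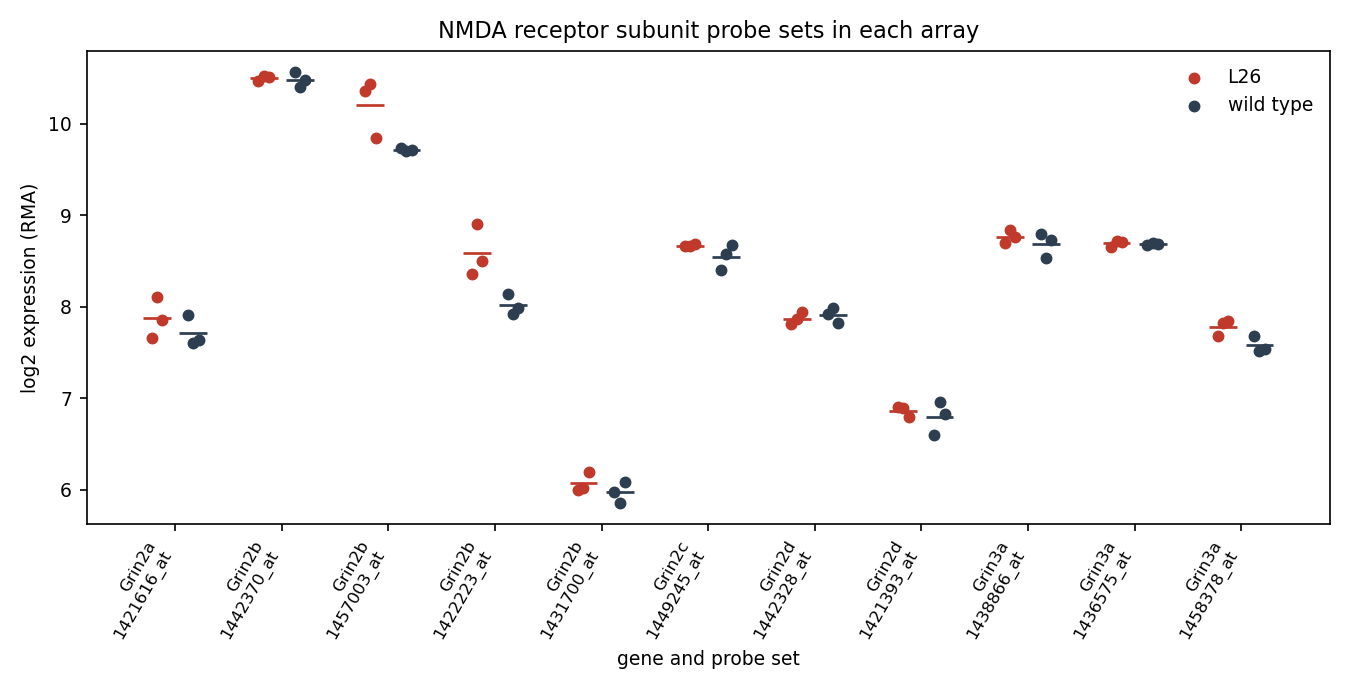
Log2 RMA expression of the 11 probe sets of NMDA receptor subunits (x axis) on each array, with L26 in red on the left and wild type in dark blue on the right of each pair. Points are single arrays and lines are group means (n = 3 each). The groups do not overlap for Grin2b 1457003_at and 1422223_at.

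Grin2b, which encodes the GluN2B subunit, gave different answers on its 4 probe sets. On 1422223_at, paired with a RefSeq mRNA record in the annotation, the values were 8.36, 8.9 and 8.5 in L26 replicates 1 to 3, against 8.14, 7.92 and 7.98 in wild type replicates 1 to 3, all log2. Every L26 array lay above every wild type array, with replicate 2 the highest. The means were 8.59 ± 0.28 in L26 and 8.01 ± 0.11 in wild type (SD, n = 3 each). The log2 difference was 0.57 (SE 0.13, 95% interval 0.29 to 0.86, adjusted p = 0.0386, limma). This call was close to the threshold: it was lost when any array but L26 replicate 1 was left out, with differences from 0.42 to 0.69 and adjusted p from 0.0259 to 0.115.

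The Grin2b probe set 1457003_at, paired with an expressed sequence tag (EST), had log2 values of 10.35, 10.43 and 9.84 in L26, against 9.73, 9.70 and 9.71 in wild type. L26 replicates 1 and 2 stood well above wild type, and replicate 3 only slightly. Its difference of 0.49 (SE 0.13, 95% interval 0.20 to 0.79) did not pass (adjusted p = 0.0786, limma). Without L26 replicate 3 it was 0.68 (adjusted p = 0.00247). The groups thus did not overlap on 2 of the 11 subunit probe sets, beside 21.9% of all probe sets.

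The remaining Grin2b probe sets showed overlapping groups. The brightest, 1442370_at, also paired with an EST, had 10.46, 10.52 and 10.51 in L26, against 10.56, 10.40 and 10.48 in wild type. Its difference was 0.02 (SE 0.06), and the 95% interval ran from -0.12 to 0.15, which leaves out the differences of the 2 probe sets above. The dimmest, 1431700_at, paired with a full-length cDNA, had 6.0, 6.02 and 6.19 in L26, against 5.98, 5.86 and 6.08 in wild type, a difference of 0.10 (SE 0.08, adjusted p = 0.571). It lay at the 26.5th percentile of probe set levels, where RMA values can understate a difference, while the other Grin2b probe sets lay between the 65th and the 89.7th.

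The disagreement was measured within each array as the log2 level of 1 Grin2b probe set minus that of another, a comparison added after the values were seen. For 1442370_at minus 1422223_at this was 2.10, 1.62 and 2.01 in L26, against 2.42, 2.48 and 2.50 in wild type. For 1442370_at minus 1457003_at it was 0.11, 0.09 and 0.67 in L26, against 0.83, 0.70 and 0.77 in wild type. The groups did not overlap in either, and the shifts were -0.56 (SE 0.15) and -0.48 (SE 0.19). Between the 2 probe sets with the larger differences the groups overlapped, since 1457003_at minus 1422223_at was 1.99, 1.53 and 1.34 in L26 and 1.59, 1.78 and 1.73 in wild type. Groups failed to overlap for 3 of the 6 pairs, each at an exact permutation p = 0.1, the smallest possible with 3 arrays a group, and an adjusted p of 0.2 over the 6 pairs. Where the probe sets lie along the Grin2b transcript was not examined here.

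**Figure D2:**
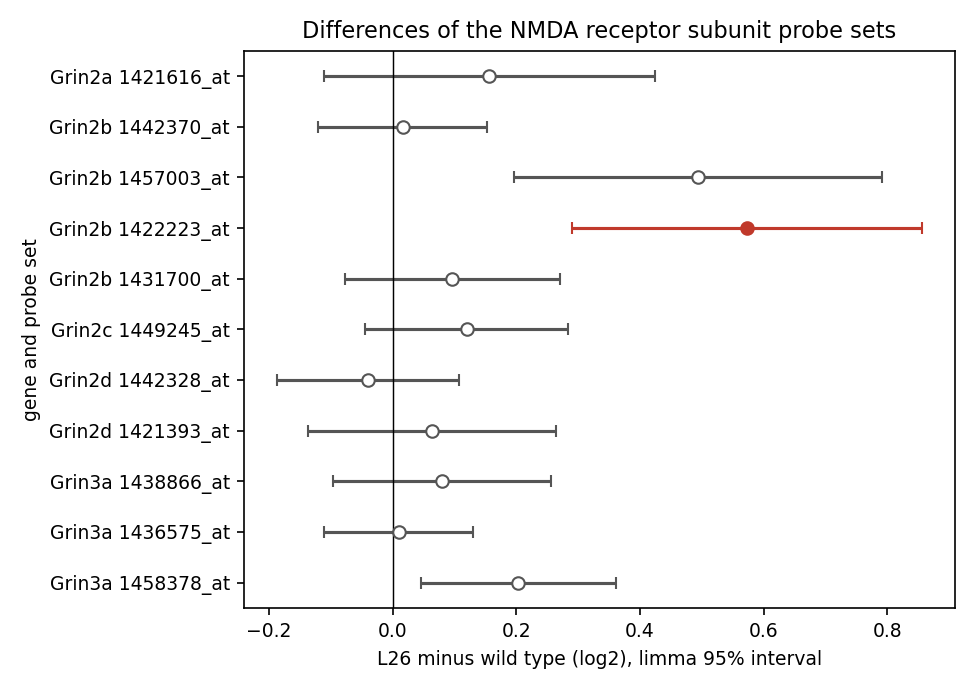
Difference between L26 and wild type (log2, x axis) for each subunit probe set (y axis), with limma's 95% interval, n = 3 arrays a group. The filled point, Grin2b 1422223_at at 0.57, passed the threshold, and open points did not.

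Grin2a, which encodes GluN2A, has a single probe set, 1421616_at. Its log2 values were 7.66, 8.11 and 7.85 in L26, against 7.91, 7.60 and 7.64 in wild type. The groups overlapped, since L26 replicate 1 was among the low arrays and wild type replicate 1 among the high ones. The difference of 0.16 (SE 0.12, adjusted p = 0.548, limma) did not pass, and its 95% interval of -0.11 to 0.42 includes a fold of 1 as well as one of 1.34.

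Grin2c and Grin2d encode the GluN2 subunits that are less abundant in hippocampal principal cells. GluN2C is best known from cerebellar granule cells and is also made by astrocytes, and GluN2D from interneurons. Grin2c on 1449245_at had 8.66, 8.66 and 8.68 in L26, against 8.40, 8.57 and 8.67 in wild type, a difference of 0.12 (SE 0.07, 95% interval -0.04 to 0.28, adjusted p = 0.437). The L26 arrays were nearly equal and the wild type arrays reached up to their level. Grin2d on its brighter probe set, 1442328_at, had 7.81, 7.86 and 7.94 in L26, against 7.92, 7.99 and 7.82 in wild type. This gave the single negative difference among the 11, -0.04 (SE 0.07, 95% interval -0.19 to 0.11). On 1421393_at Grin2d had 6.90, 6.89 and 6.79 in L26, against 6.60, 6.96 and 6.83 in wild type (difference 0.06, SE 0.09). Among all genes 4.61% passed, 2.29% higher and 2.31% lower in L26. Of the marker lists for these cells, 1 of 16 interneuron genes was higher and 1 lower in L26, and 1 of 14 astrocyte genes was lower. Yet 12 of the 14 astrocyte genes had a difference above 0, beside 55.1% of all probe sets. The summed astrocyte signal (log2) was 16.25 to 16.30 in L26 and 16.19 to 16.22 in wild type. The interneuron sum was lower, at 14.94 to 14.98 in L26 and 14.996 to 15.031 in wild type, but the mean log2 levels of that list overlapped. An unadjusted p under 0.05 (limma) was seen for 8 of the 16 interneuron genes and 4 of the 14 astrocyte genes, beside 19.1% of all genes. The part of these cells in the Grin2c and Grin2d values was not tested.

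DREAM is known to bind DNA at the downstream regulatory element, whose core is GTCA. RefSeq promoters (build GRCm38.p6) were matched for 3 of the 6 listed genes, and those of the measured Grin2c and Grin2d are shown as examples of how this core falls in subunit promoters. Each line holds the 250 bases before the annotated start, 5′ to 3′ on the gene's strand, with GTCA, or TGAC where the core lies on the other strand, in capitals.
Grin2c, chr11:115267244-115267493, minus strand: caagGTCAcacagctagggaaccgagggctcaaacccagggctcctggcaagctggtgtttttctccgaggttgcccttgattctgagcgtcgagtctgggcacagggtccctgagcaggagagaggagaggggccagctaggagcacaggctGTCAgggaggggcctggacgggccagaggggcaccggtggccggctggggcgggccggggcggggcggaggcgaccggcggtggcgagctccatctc
Grin2d, chr7:45866682-45866931, minus strand: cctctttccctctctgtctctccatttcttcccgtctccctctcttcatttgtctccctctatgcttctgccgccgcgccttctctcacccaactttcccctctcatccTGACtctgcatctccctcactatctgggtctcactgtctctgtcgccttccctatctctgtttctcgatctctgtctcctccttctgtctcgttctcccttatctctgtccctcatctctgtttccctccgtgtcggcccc
The Grin2c window held GTCA 2 times and TGAC 0 times, and the Grin2d window held TGAC 1 time. Of 32851 promoter windows of this length, 80.2% held the core on at least 1 strand, so a match does not set these promoters apart. Bases after the annotated start were not searched. The measured transcripts of both genes had differences that did not pass, as given above.

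Grin3a encodes GluN3A, a glycine-binding subunit that lowers the calcium permeability of the receptors it joins. Its probe set 1458378_at had 7.68, 7.82 and 7.84 in L26, against 7.68, 7.51 and 7.54 in wild type. The lowest L26 array equalled the highest wild type array. The difference of 0.20 (SE 0.07, 95% interval 0.05 to 0.36) had an unadjusted p of 0.0169 and an adjusted p of 0.158 from limma, and did not pass. On 1438866_at Grin3a had 8.69, 8.84 and 8.76 in L26, against 8.79, 8.53 and 8.73 in wild type (difference 0.08, SE 0.08). On 1436575_at, which had the smallest SE of the 11, it had 8.65, 8.72 and 8.71 in L26, against 8.67, 8.70 and 8.68 in wild type. The difference there was 0.01 (SE 0.05, 95% interval -0.11 to 0.13). All 3 probe sets are paired with ESTs.

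With 1 value per gene, taken from its probe set that was brightest on average across the 6 arrays, 0 of the 5 subunit genes passed (limma, adjusted over 18193 genes), and 0 had an unadjusted p under 0.05. Among all genes 4.61% passed, 2.29% higher and 2.31% lower in L26, and 19.1% had an unadjusted p under 0.05. Grin2b is represented there by 1442370_at. When a gene was represented by the mean of all its probe sets instead, 1 of the 5 passed. This was Grin2b, with a difference of 0.30 (SE 0.07, adjusted p = 0.0366), while Grin3a had 0.10 (SE 0.06, adjusted p = 0.372) and Grin2d 0.01 (SE 0.06, adjusted p = 0.946). Whether Grin2b was called at gene level thus depended on how its probe sets were combined.

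Subunit ratios were taken in each array as the log2 level of 1 subunit's probe set minus that of another, for the 10 pairs of the 5 measured genes. The size of such a ratio also holds how well each probe set responds, so only its shift between the groups was compared, and a scaling of a whole array cancels out of it. For Grin2a minus Grin2b, the pair that changes with maturation, the ratio on the highest-mean probe sets was -2.80, -2.41 and -2.66 in L26, against -2.65, -2.80 and -2.84 in wild type. The groups overlapped, and the shift was 0.14 (SE 0.13, exact permutation p = 0.5, adjusted p = 0.833 over 10 pairs). Grin2a minus Grin2d had the largest shift of the 10 pairs, 0.20 (SE 0.17), with -0.15, 0.25 and -0.09 in L26, against -0.01, -0.39 and -0.18 in wild type. The lowest was that of Grin2d minus Grin3a, -0.12 (SE 0.13). None of the 10 pairs had groups that did not overlap.

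The Grin2a to Grin2b ratio depended on the Grin2b probe set, an alternative added after the values were seen. With 1422223_at it was -0.70, -0.79 and -0.65 in L26, against -0.23, -0.32 and -0.34 in wild type. All L26 arrays lay below all wild type arrays, and the arrays within each group were close together, with SDs of 0.07 in L26 and 0.06 in wild type. The shift was -0.42 (SE 0.05, exact permutation p = 0.1, the smallest possible, adjusted p = 0.4 over the 4 probe sets). With 1457003_at the ratio was -2.69, -2.32 and -1.99 in L26, against -1.82, -2.10 and -2.07 in wild type, and overlapped. With 1431700_at it shifted by 0.06 (SE 0.18).

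**Figure D3:**
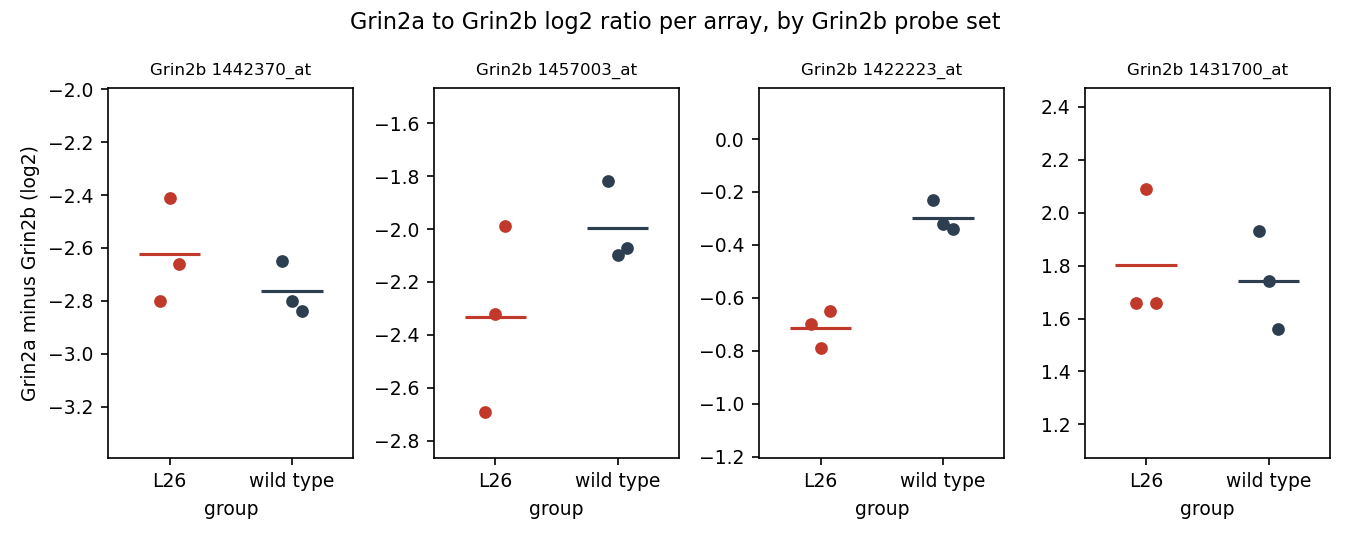
Log2 ratio of Grin2a (1421616_at) to Grin2b in each array, with 1 panel for each Grin2b probe set, L26 left and wild type right in each panel. Points are arrays and lines are group means (n = 3 each), and the y axes cover the same span at different levels. The groups are apart with 1422223_at, at -0.79 to -0.65 in L26 and -0.34 to -0.23 in wild type, and overlap in the other panels.

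Genes with a pattern over the 6 arrays most like a subunit's were sought among 2726 genes with an SD of at least 0.15. No subunit gene passed at gene level, so the search took Grin2c, the one with the smallest p. The highest Pearson correlations with Grin2c were those of Tbx18 (0.994), Spef1 (0.990), Gch1 (0.987), Spink8 (0.979) and Rell1 (0.978). For Grin2b 1422223_at, chosen after its values were seen, they were those of Erc1 (0.990), Magef1 (0.983), Islr2 (0.983), Pmel (0.983) and Sema3e (0.983). With 6 arrays and this many genes, such values are a description of the arrays.

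Among genes whose products anchor and transport NMDA receptors, Lin7c was higher on all of its probe sets. On the brightest probe set of each of 23 measured genes, 1 gene was higher, 0 were lower and 22 did not pass. Among all genes 4.61% passed. The median difference was 0.05, beside 0.01 over all genes. Lin7c encodes a PDZ scaffold of the complex that carries GluN2B-containing cargo with the kinesin Kif17. On 1450937_at it had 10.96, 11.15 and 11.07 in L26, against 10.35, 10.22 and 10.31 in wild type, a difference of 0.77 (SE 0.07, adjusted p = 0.000407 over genes, limma). The groups were far apart, at 1.70-fold. The other 3 Lin7c probe sets passed as well, at 0.77 to 1.0 on the log2 scale. Kif17 itself had 0.07 (adjusted p = 0.654), and Dlg4, which encodes the scaffold PSD-95, had 0.05 (SE 0.07, adjusted p = 0.773). Over all 64 probe sets of the list, 5 were higher and 0 lower, or 7.81%, beside 3.92% of all probe sets. These were the 4 of Lin7c and 1 of Homer1, which encodes a postsynaptic scaffold that links glutamate receptors to Shank proteins. Homer1 1436387_at had 10.72, 10.69 and 9.90 in L26, against 8.89, 9.21 and 9.55 in wild type, a difference of 1.22 (SE 0.22, adjusted p = 0.0173 over probe sets), larger than that of any Lin7c probe set. The groups did not overlap but were spread, and the other 5 Homer1 probe sets, the brightest among them, had -0.02 to 0.20 and did not pass.

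For kinases, phosphatases and signalling partners of the receptor, 24 genes were measured. On their brightest probe sets 1 gene was higher, 0 were lower and 23 did not pass, where 4.61% of all genes passed. The median difference was -0.03, beside 0.01 over all genes. Nos1ap, whose product links neuronal nitric oxide synthase to other proteins, had 10.54, 10.40 and 10.48 in L26, against 10.15, 10.12 and 10.25 in wild type. The difference was 0.30 (SE 0.06, adjusted p = 0.0304 over genes, limma), and its other probe set had 0.30 as well. Camk2a, which encodes the calcium/calmodulin kinase that binds GluN2B, had 13.12 in each of the L26 arrays, against 13.02, 12.98 and 13.06 in wild type (difference 0.10, adjusted p = 0.353). Like Grin2b, Camk2a had dimmer probe sets that moved more than its brightest one. Camk2a also had dimmer ones that moved less, 1442707_at by 0.02 and 1452453_a_at by 0.05. On 1443876_at it had 10.73, 10.81 and 10.76 in L26, against 9.82, 9.83 and 9.96 in wild type, a difference of 0.90 (adjusted p = 9.15e-05 over probe sets). In all, 2 of its 6 probe sets were higher. The same held for 1 of 3 probe sets each of Prkca, a protein kinase C gene, and Rasgrf1, a Ras exchange factor gene. Prkca had 0.46 (adjusted p = 0.00233 over probe sets) on 1450945_at but -0.12 on its brightest, and Rasgrf1 had 0.37 (adjusted p = 0.00732) on 1424734_at but -0.12 on its brightest. Neither brightest probe set passed. Over all 82 probe sets of this list, 5 were higher and 0 lower, or 6.1%, beside 3.92% of all probe sets.

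**Figure D4:**
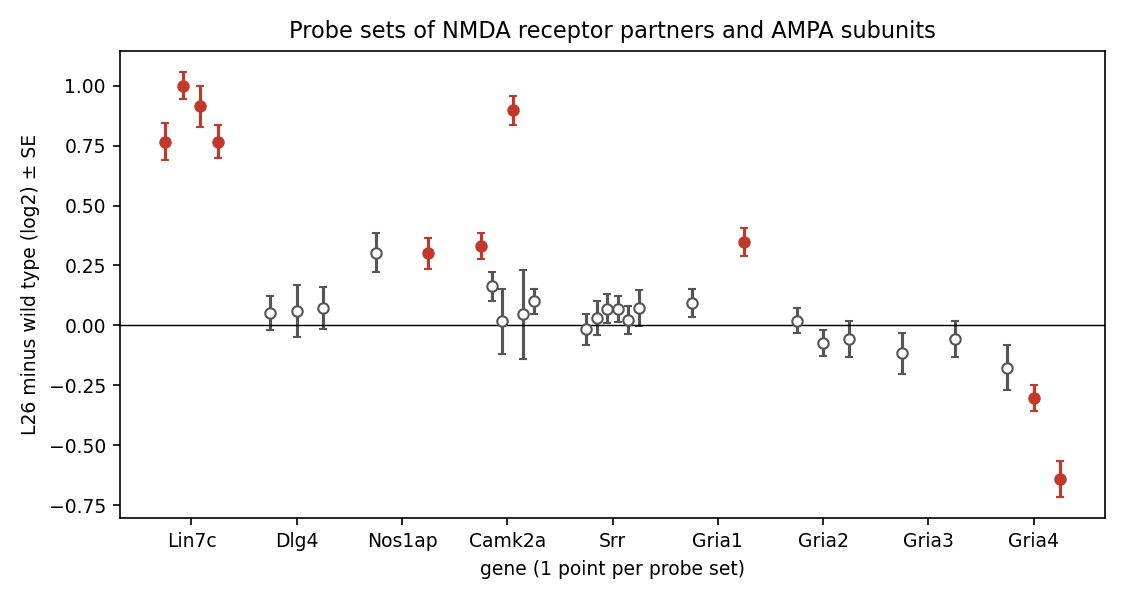
Difference between L26 and wild type (log2, y axis) for each probe set of Lin7c, Dlg4, Nos1ap, Camk2a, Srr and the AMPA receptor subunits (x axis), with limma's SE, n = 3 arrays a group. The passing probe sets of Homer1, Prkca, Rasgrf1, Slc1a4 and Slc38a1 are not drawn. Filled points passed the threshold over probe sets: all 4 of Lin7c, 2 of 6 of Camk2a, 1 each of Nos1ap and Gria1, and 2 of Gria4, which lie below 0.

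Genes for the supply of glycine and D-serine, listed together with the kynurenine pathway genes Kmo and Aadat, gave no call on their brightest probe sets. Of 17 measured, 0 passed over genes with limma, and 4 had an unadjusted p under 0.05, beside 19.1% of all genes. The median difference was 0.05, beside 0.01 over all genes, and 15 of the 17 were above 0, beside 55.1% of all probe sets. Their mean log2 level was 8.61 to 8.66 in L26 and 8.54 to 8.55 in wild type, with no overlap. No test was made of the list as a whole. Gldc, of the glycine cleavage system, had the smallest p, with a difference of 0.20 (SE 0.05, adjusted p = 0.0715). Srr, which encodes the D-serine forming serine racemase, had 10.20, 10.15 and 10.20 in L26, against 10.23, 10.09 and 10.16 in wild type (difference 0.02, adjusted p = 0.883). Over all 38 probe sets of this list 2 were higher and 0 lower, or 5.26%, beside 3.92% of all probe sets. These were Slc1a4 1423549_at by 0.38 (adjusted p = 0.0175, limma) and Slc38a1 1415903_at by 0.31 (adjusted p = 0.0278), of genes for neutral amino acid transporters. Their brightest probe sets had 0.003 and -0.10 and did not pass.

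The AMPA receptor subunits, which carry the fast glutamate current beside NMDA receptors, moved in different directions. Of the 4 genes Gria1 was higher, Gria4 was lower and 2 did not pass. Gria1 had 13.05, 13.01 and 13.01 in L26, against 12.69, 12.74 and 12.60 in wild type, a difference of 0.35 (SE 0.06, adjusted p = 0.0116), while its other probe set had 0.09. Gria4 had 10.07, 10.10 and 10.14 in L26, against 10.45, 10.37 and 10.40 in wild type, a difference of -0.30 (SE 0.05, adjusted p = 0.0162), and its other probe sets had -0.64 and -0.18. Over probe sets, 3 of 10 passed for the AMPA subunits and 1 of 11 for the NMDA subunits, beside 3.92% of all probe sets. The difference between these families was not tested.

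Markers of other cells moved on the same arrays. The counts below stand beside 4.61% of all genes passing, 2.29% higher and 2.31% lower in L26. Of 14 oligodendrocyte genes 10 were higher in L26, and their summed signal was 16.09 to 16.28 in L26 and 15.84 to 15.93 in wild type (log2). Of 15 vascular genes 8 were higher, with summed signals of 13.36 to 13.43 in L26 and 13.003 to 13.028 in wild type. Of 14 neocortical and subicular genes 5 were lower (13.72 to 13.77 in L26, 13.89 to 13.96 in wild type). Of 12 pan-neuronal genes none passed, at 16.50 to 16.52 in L26 and 16.49 to 16.57 in wild type. An unadjusted p under 0.05 (limma) was seen for 2 of the 12, beside 19.1% of all genes. Of 11 thalamic and habenular genes 1 was higher and 3 were lower (12.49 to 12.68 in L26, 12.54 to 12.66 in wild type). Of 9 choroid plexus genes Kcne2 was lower and 8 did not pass. Yet 8 of the 9 had a difference above 0, with a median of 0.27, beside 0.01 over all genes. The mean log2 level of the 9 genes varied within both groups. It was 9.51, 8.81 and 9.86 in L26 replicates 1 to 3, against 8.85, 9.54 and 9.66 in wild type. L26 replicate 2, the lowest L26 array in that choroid plexus level, was the highest for Grin2b 1422223_at. Without replicate 2 this probe set had a difference of 0.42 (adjusted p = 0.053, limma). Replicate 2 was also the highest L26 array in the mean oligodendrocyte level, at 11.33, 11.56 and 11.43 in L26 replicates 1 to 3. The same held for the vascular, astrocyte, neocortical and dentate lists, but not for the CA1, CA3, interneuron, pan-neuronal or thalamic lists. Among subfield markers, 3 of 10 CA3 genes were higher (Iyd, Bok and Grik4) and 1 lower (Cpne4), 3 of 11 dentate genes were higher and 1 lower, and 1 of 9 CA1 genes was higher. Their part in the Grin2b and Lin7c differences was not tested.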

How the data were processed

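Hippocampal RNA of 3 L26 and 3 wild type mice was measured on 1 array each. The authors deposited log2 expression values, made with RMA and the affy package per the submitters' processing notes (no version is given in the sources used here). No detection calls come with such values. The precision is limited by the number of arrays.

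Of 45101 probe sets, 64 controls were left out and 45037 were tested, dim ones included. In the platform annotation 34945 of them have 1 symbol. limma 3.58.1 in R 4.3.3 (lmFit, eBayes, L26 minus wild type, two-sided) was fitted to all 45037, and p-values were adjusted by Benjamini-Hochberg across probe sets, or across 18193 genes, each by its brightest probe set on average. Marker and partner genes use the latter. Intervals are limma's 95% intervals. Ratios were compared by exact permutation over the 6 arrays. The code was tested on simulated data.

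The members, gene lists and tests were chosen with earlier results of these data known. The naming rule covers every member probe set, up to 4 called genes of each list (else the 1 with the smallest p), and Dlg4, Camk2a and Srr; marker lists are given mainly as counts. Kif17 and the probe sets of Homer1, Prkca, Rasgrf1, Slc1a4 and Slc38a1 were added after their values were seen. Alternatives were a replicate block, each array left out, other scalings, filters, priors and weights, a threshold of 0.1, and the mean of a gene's probe sets. Replicate numbers were not treated as pairs.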

Additional observations from a re-analysis of the deposited data

How the results depend on the processing

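The call of 1 higher subunit probe set, Grin2b 1422223_at, depended on several choices, while its direction did not. The count was 0 with the replicate block, 2 with an intensity trend and robust prior (1457003_at passed too, adjusted p = 0.0482), 2 at an adjusted p threshold of 0.1, and 0 to 1 when single arrays were left out. Without L26 replicate 3 the 1 call was 1457003_at in place of 1422223_at. Deviations of same-numbered arrays correlated at -0.04, -0.07 and 0.15, which cannot decide whether the arrays were paired. Under the block 1422223_at kept its difference of 0.57 but did not pass (adjusted p = 0.0753, limma). For subunit genes the count of 0 became 1 with the mean of all probe sets. The 4 calls among partner and AMPA genes became 7 with that mean (Camk2a, Gldc and Prkca besides), ranged from 2 to 4 over the fits without 1 array, the 2 being without wild type replicate 1, L26 replicate 2 or L26 replicate 3, and stayed 4 with the block.

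With the mean of all probe sets the shift of Grin2a minus Grin2b was -0.14, that of Grin2b minus Grin2c 0.18, that of Grin2b minus Grin2d 0.28 and that of Grin2b minus Grin3a 0.20. With 1457003_at Grin2a minus Grin2b shifted by -0.34, and with 1422223_at by -0.42. Differences near 0 changed sign: Grin2b 1442370_at had -0.023 without wild type replicate 2 (-0.023 to 0.057 over the fits without 1 array) and -0.013 with arrays centred on their medians, Grin3a 1436575_at had -0.0033 without L26 replicate 2 (-0.0033 to 0.032 over such fits) and -0.02 when centred, and Grin2d 1421393_at had -0.035 without wild type replicate 1 (-0.035 to 0.145). The cause of these changes was not tested. Grin2d 1442328_at had a difference of exactly 0 without wild type replicate 2. Of the 131 probe set differences over all alternatives, 117 kept their direction and their side of the threshold. Grin2b 1431700_at was too dim to be kept when the dimmest 40% were removed.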
